A study of Mus musculus with 22 samples.

Results

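Eph receptors and their ephrin ligands, Slit ligands and their Robo receptors, and the netrins with their receptors are cell-surface and secreted guidance proteins. A list of 42 mouse genes of these families was read across sorted retinal neurons. The genes were chosen by symbol, through the Ensembl gene IDs of the deposited expression table, and the rule uses no measured value. The list was, however, chosen with earlier results of these data known. Of the 42 genes, 32 had a row, among 13812 genes with a row in the table. The 32 were 7 of 9 A-class Eph receptors (Epha1, Epha3, Epha4, Epha5, Epha7, Epha8, Epha10), 4 of 5 B-class Eph receptors (Ephb1, Ephb2, Ephb3, Ephb6), 4 of 5 A-class ephrins (Efna1, Efna2, Efna4, Efna5), 3 of 3 B-class ephrins (Efnb1, Efnb2, Efnb3), 1 of 3 slits (Slit2), 3 of 3 Robo receptors (Robo1, Robo2, Robo3), 1 of 3 netrins (Ntn4), 2 of 2 netrin-Gs (Ntng1, Ntng2), 5 of 6 netrin and repulsive guidance molecule receptors (Unc5a, Unc5b, Unc5c, Unc5d, Neo1), 1 of 2 repulsive guidance molecules (Rgmb) and draxin (Draxin). The other 10 genes (Epha2, Epha6, Ephb4, Efna3, Slit1, Slit3, Ntn1, Ntn3, Dcc and Rgma) were not analysed here. All 32 genes with a row passed the filter on low values, which asked for a log2 CPM (CPM, read counts scaled to library size) of 0 or more in both libraries of some group.

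The study sequenced RNA from purified mouse retinal cells. Rods, cones and bipolars were sorted at P7, P13 and P30 (postnatal days 7, 13 and 30), and at P13 the rod bipolars and the cone bipolars were also sorted apart, which gives 11 groups with 2 libraries each. The sample labels name the third population bipolars, whereas the series design names it ON-bipolar cells, the bipolars that depolarise to light. Not given in the sources used here: strain, sex, reporter and gate. No treatment or genetic change is named for any group.

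The 22 libraries held 14.4 to 54.4 Mreads (megareads) over the genes of the table and detected 11327 to 13611 genes. Values are given as CPM on the authors' scaling, taken back from the deposited log2 values to whole reads. A group without a read was given a floor of 3 reads over its 2 libraries, which was 0.0275 to 0.0766 CPM, and floors and intervals cover counting error only. The RNA had been amplified linearly before library construction, so reads are not independent molecules. Most defining markers followed the labels: Nrl was at 672 to 1196 CPM in rods and 18.8 to 59.97 CPM in cones, Arr3 was at 1971 to 12837 CPM in cones and at most 38.7 CPM in rods, and the ON-bipolar receptor gene Grm6 was at 1031 CPM or more in every bipolar library and had no read in rods. The 8 rod markers, Nrl among them, summed to 3298 to 9836 CPM in cones, against 18849 to 46663 CPM in rods. The part of this rod signal in the cone values was not tested. Prkca, a rod bipolar marker, was at 5044 and 6298 CPM in rod bipolars and 304 and 188 CPM in cone bipolars, and Scgn, a cone bipolar marker, was at 25.4 and 20.6 CPM against 709.9 and 459 CPM. The summed level of the 4 cone bipolar markers, Scgn among them, did not stand apart in the same way: it was 1487 and 1226 CPM in rod bipolars and 1702 and 1331 CPM in cone bipolars, with Cabp5 at 1207 and 952 CPM in the former and 452 and 417 CPM in the latter. Whether the libraries within a group stem from different animals is not in the labels, so the p-values measure the spread between these libraries, which may be technical.

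As background, Eph receptors are receptor tyrosine kinases that bind membrane-anchored ephrins on neighbouring cells, and the A and B classes set up the topographic map of retinal axons in the brain. Slits are secreted repellents that signal through Robo receptors, netrins attract through DCC and neogenin and repel through UNC5 receptors, and netrin-Gs are membrane-anchored relatives that bind NGL proteins at synapses rather than the classical netrin receptors. Retinal bipolars, rods and cones do not send axons to the brain, and they wire locally in the plexiform layers during the first postnatal weeks.

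RefSeq promoters (build GRCm38.p6, 250 bases before to 50 bases after a gene's start) were available for 30 of the 32 genes, with 36 promoters in all; Efnb3 and Unc5d had no entry. Their median GC content was 65.3%, against 52.7% over 32851 promoters, and their median number of CpG dinucleotides was 24, against 7. Of the 36, 34 held more CpG than that all-promoter median. The motif TAATCC, the core bound by the homeodomain factor CRX of photoreceptors and by its OTX relatives, was searched on both strands (GGATTA on the other) and lay in 1 of the 36, that of Robo3, against 7.06% of all promoters. The homeodomain core TAATTA lay in 3 of the 36 (Efna1, Epha5 and Robo3), against 5.29%. A match is a description of letters and not a bound site. The promoters of the highest gene in cones (Epha10), the secreted ligand with the highest level in bipolars (Slit2), the gene with the highest level in rod bipolars (Ntng1) and the gene that held both motifs (Robo3) are printed 5′ to 3′. Capitals mark CpG in the first 3 and the motif matches in Robo3.
Epha10, chr4:124881535-124881834, plus strand: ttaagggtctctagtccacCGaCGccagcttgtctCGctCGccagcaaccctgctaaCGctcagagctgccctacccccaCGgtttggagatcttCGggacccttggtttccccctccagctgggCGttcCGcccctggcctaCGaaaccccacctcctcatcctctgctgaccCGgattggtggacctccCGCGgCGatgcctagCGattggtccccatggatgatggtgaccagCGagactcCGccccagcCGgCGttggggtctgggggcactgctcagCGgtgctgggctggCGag
Slit2, chr5:47982905-47983204, plus strand: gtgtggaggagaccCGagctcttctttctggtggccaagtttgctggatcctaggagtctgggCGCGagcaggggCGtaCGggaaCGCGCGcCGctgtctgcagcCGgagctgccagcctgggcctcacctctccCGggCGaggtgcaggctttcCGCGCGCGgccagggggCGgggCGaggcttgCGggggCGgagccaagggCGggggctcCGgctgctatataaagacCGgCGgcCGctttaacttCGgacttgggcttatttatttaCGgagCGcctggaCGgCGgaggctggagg
Ntng1, chr3:110143423-110143722, minus strand: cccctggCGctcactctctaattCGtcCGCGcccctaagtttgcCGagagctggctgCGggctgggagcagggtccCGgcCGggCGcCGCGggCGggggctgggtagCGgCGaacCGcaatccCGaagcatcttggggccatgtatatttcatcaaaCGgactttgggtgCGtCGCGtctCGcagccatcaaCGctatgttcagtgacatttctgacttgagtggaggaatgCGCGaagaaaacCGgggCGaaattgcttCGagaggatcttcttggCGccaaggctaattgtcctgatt
Robo3, chr9:37433126-37433425, minus strand: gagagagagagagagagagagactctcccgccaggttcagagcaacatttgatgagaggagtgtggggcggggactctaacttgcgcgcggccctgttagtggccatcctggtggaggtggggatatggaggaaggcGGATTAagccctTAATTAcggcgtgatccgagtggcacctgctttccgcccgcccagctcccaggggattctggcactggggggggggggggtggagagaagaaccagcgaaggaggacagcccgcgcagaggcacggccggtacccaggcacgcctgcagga
Those of Epha10, Slit2 and Ntng1 held 21, 30 and 28 CpG, and the 17 CpG of Robo3 are left in lower case. The genes lie at chr4:124880899-124917800 (Epha10), chr5:47983138-48307733 (Slit2), chr3:109780040-110144011 (Ntng1) and chr9:37415669-37433246 (Robo3) in GENCODE M21, on the same build.

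Most of these genes had their highest mean in a bipolar group. At least 1 CPM on average was reached by 29, 28 and 28 of the 32 genes in bipolars at P7, P13 and P30, by 27, 22 and 21 in cones and by 22, 17 and 14 in rods. Of the populations sorted apart at P13, cone bipolars reached it for 26 genes and rod bipolars for 22, with 4 genes without a read in rod bipolars. At least 10 CPM was reached by 17 genes at each age in bipolars, by 11, 10 and 6 in cones, by 6, 7 and 3 in rods, by 16 in cone bipolars and by 11 in rod bipolars. Of the 32 genes, 25 had their highest mean in a bipolar group (10 of them in bipolars at P7, 4 in rod bipolars and 5 in cone bipolars), 5 in cones, and 2, Unc5c and Rgmb, in rods at P13. Values per kb are scaled to the length covered by all annotated exons of a gene, not to that of 1 transcript. This length was 25433 bases for Slit2 and 9884 bases for Epha7, and the order per kb depends on it. With each gene taken at its highest group only, the highest means were 116 CPM per kb for Epha7 in cone bipolars and 103 CPM per kb for Ntng1 in rod bipolars. They were followed by 31.7 for Epha4 in cone bipolars, 23.4 for Slit2 in bipolars at P7 and 19.4 for Robo2 in cone bipolars. The highest mean outside the bipolars was 11.8 CPM per kb for Epha10 in cones at P13. These are bulk measurements of sorted pools, in which fewer cells of a type and less RNA per cell cannot be told apart.

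**Figure D1:**
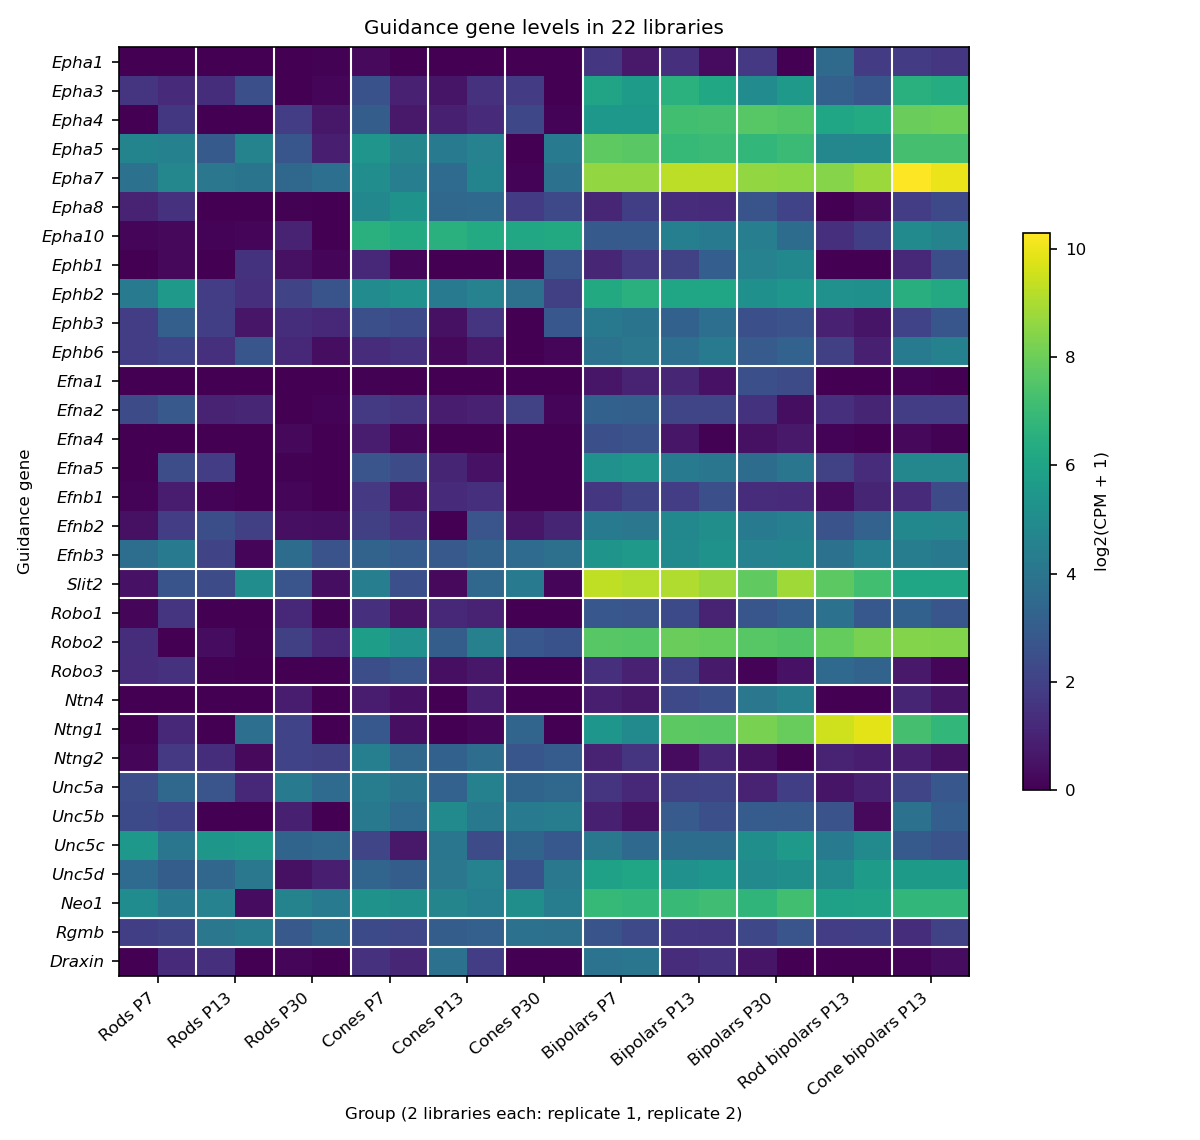
Level of each of the 32 genes (rows, by role) in each of the 22 libraries (columns, by group), as log2(CPM + 1). Epha7, Slit2, Robo2 and Ntng1 stand out in the bipolar columns and Epha10 in the cone columns, and rods at P30 reached 10 CPM for 3 genes.

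Bipolars were set against photoreceptors (the mean of rods and cones of the same age) at each age, in 1 limma fit over all 22 libraries with Benjamini-Hochberg adjustment over the 13405 genes tested. A gene was called where the adjusted p was under 0.05 and the log2 fold change was 1 or more in size. At P7, 10 of the 32 genes were higher in bipolars (31.2%, against 11.6% of all genes) and 1 was lower (3.1%, against 11.1%). At P13, 22 were higher (68.8%, against 20.6%) and 1 was lower (3.1%, against 12.8%). At P30, 21 were higher (65.6%, against 22.6%) and 2 were lower (6.2%, against 13%). Receptors and ligands were both among them: at P13 the higher genes were 8 of the 11 Eph receptors, 6 of the 7 ephrins, Slit2, all 3 Robo receptors, Ntn4, Ntng1, Neo1 and Unc5d. The contrast averages rods and cones on the log2 scale, so low rod values can give a call where cones are not lower. Epha10, called at P13, was at 21.1 and 18.1 CPM in bipolars, 92.1 and 77.6 CPM in cones and 0.0703 and 0.126 CPM in rods. Epha8, called at P30, was at 5.44 and 3.24 CPM in bipolars, 2.48 and 3.89 CPM in cones and 0.0453 and 0 CPM in rods. Across ages, 9 genes were called higher at P7, P13 and P30 alike: Epha3, Epha4, Epha7, Ephb2, Efna1, Efna4, Slit2, Robo2 and Unc5d. The median log2 difference over the 32 genes was 2.90, 3.96 and 4.74 at P7, P13 and P30, against 0.12, 0.18 and 0.13 over all genes, and 2.81, 3.91 and 3.94 with groups without a read set at the floor. The 3 contrasts share no library, but they share 1 estimate of each gene's spread. Scaling to plain read totals moved the all-gene medians to 0.27, 0.66 and 0.55 and the calls on these genes to 12, 24 and 25, with 23.3%, 36.4% and 36.6% of all genes called. Among all called genes this scaling moved the share called higher from 61.6% to 78.6% at P13 and from 63.5% to 78.6% at P30.

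**Figure D2:**
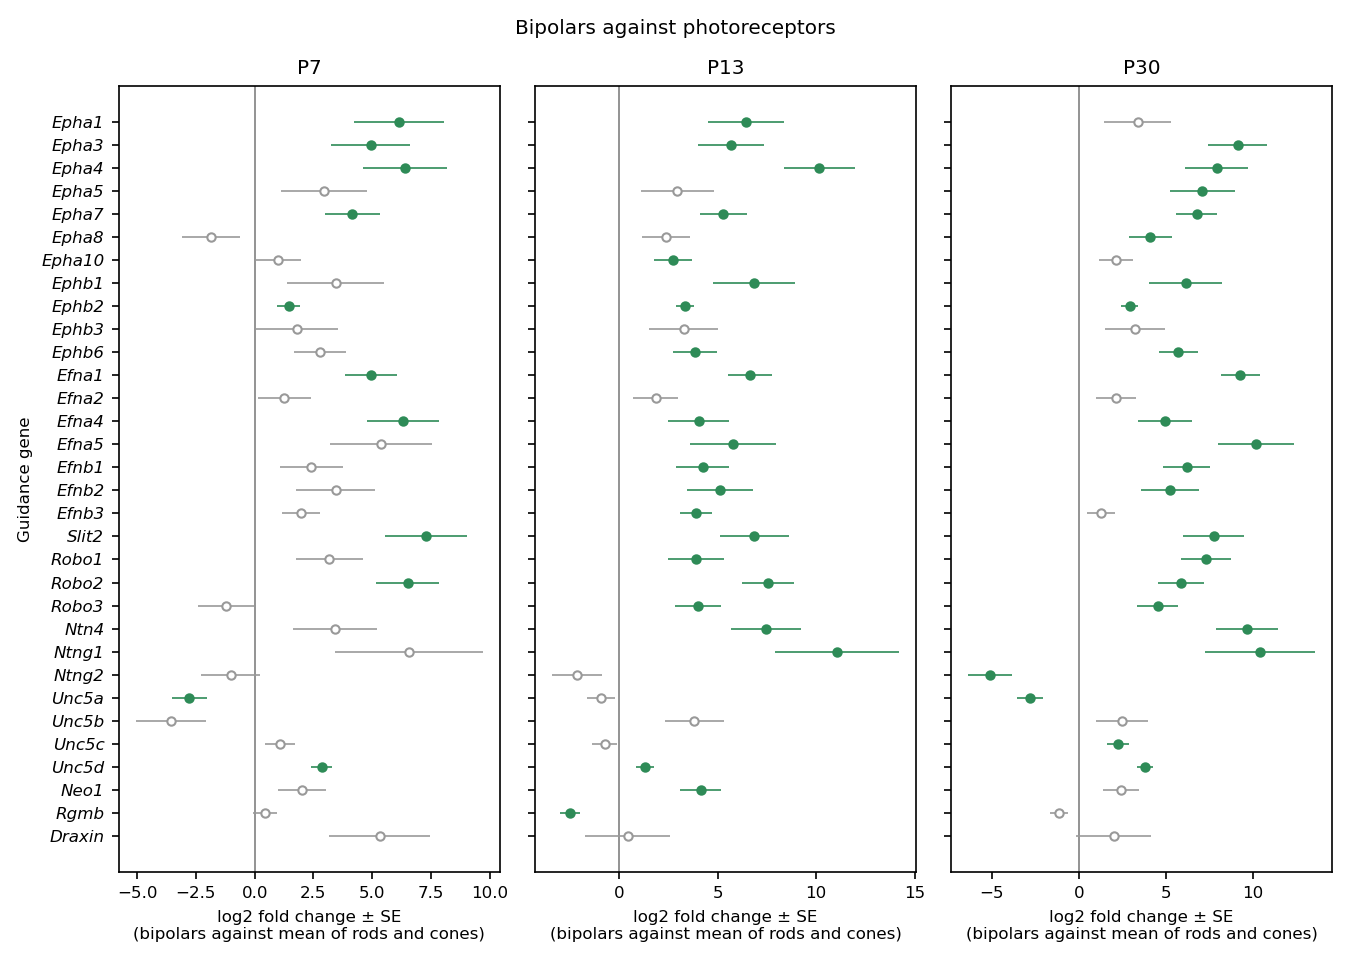
Log2 fold change of bipolars over photoreceptors (horizontal axis, ± SE of the limma fit) for the 32 genes at P7, P13 and P30; filled green points were called and open grey points were not. Most points lie to the right of 0 at every age, and the lower calls are Unc5a at P7, Rgmb at P13, and Ntng2 and Unc5a at P30.

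The calls were not equally firm. Of the 11 calls at P7, 4 (Efna1, Slit2, Robo2 and Unc5d) held in each of the 22 fits that left out 1 library, and the other 7 ended in a fit without 1 of the P7 bipolar libraries, with highest adjusted p-values from 0.0524 (Efna4) to 0.211 (Ephb2) by limma. Of the 23 at P13, 10 held (Epha4, Epha7, Ephb2, Efna1, Efnb3, Slit2, Robo2, Ntn4, Neo1 and Rgmb), and the other 13 ended in a fit without 1 of the P13 bipolar libraries, with highest adjusted p-values from 0.07 (Ntng1) to 0.38 (Efna4). Of the 23 at P30, 14 held, and the other 9 (Epha8, Ephb1, Efna4, Efnb2, Robo3, Ntng1, Ntng2, Unc5a and Unc5c) ended in a fit without 1 of the P30 bipolar libraries, with highest adjusted p-values from 0.0785 (Ntng1) to 0.127 (Ephb1). In such a fit the library left over is assumed to vary like the other groups. When the fit held only the compared groups, Epha4 and Robo2 were not called at P7, Epha5, Ephb1 and Ntng1 at P30, and 10 genes at P13, namely Ephb1, Efna4, Efna5, Efnb1, Efnb2, Efnb3, Robo1, Robo3, Ntng1 and Neo1. On the log2(CPM + 1) scale, which weighs low levels less, Epha1 and Efna1 were not called at P7, Epha1, Efna1, Efna4 and Robo1 at P13, and Efna4 and Robo3 at P30.

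Among the A-class Eph receptors, Epha7 was the most abundant per kb in bipolars. Epha7 stood at 396 and 391 CPM in bipolars at P7, 622 and 610.2 CPM at P13 and 397 and 371 CPM at P30, while rods held 10.03 to 26.3 CPM and cones 0.0801 to 32.0 CPM. Every bipolar library lay above every photoreceptor library. The log2 difference was 4.16 ± 1.18 (SE) at P7, 5.29 ± 1.18 at P13 and 6.77 ± 1.18 at P30, with limma adjusted p-values of 0.0141, 0.00224 and 0.000311. Epha4, a receptor that binds ephrins of both classes, was at 44.2 and 44.4 CPM at P7, 142 and 151 CPM at P13 and 198 and 183 CPM at P30 in bipolars, against 7.32 CPM or less in every rod or cone library. Its bipolar values did not overlap between ages, yet this rise with age was not called in the fit over all groups. Epha3 was at 64.5 and 49.8, 94.5 and 71.99, and 30.2 and 45.4 CPM in bipolars at P7, P13 and P30, against 5.03 CPM or less in photoreceptors, with log2 differences of 4.93 ± 1.67, 5.70 ± 1.67 and 9.10 ± 1.67 (adjusted p 0.0362, 0.0131 and 0.000481). At P30 rods were at 0 and 0.149 CPM and cones at 2.48 and 0 CPM, so the larger Epha3 value there rests on libraries without a read. Epha5 was at 216 and 203, 119.6 and 127, and 113 and 128 CPM in bipolars, and photoreceptors held up to 40.8 CPM, so that the groups did not overlap at any age. The Epha5 difference was called at P30 alone, at a log2 of 7.09 ± 1.85 (adjusted p = 0.00597), where 1 cone library had no read and the other 17.2 CPM. Epha1, at 10.8 and 2.52 CPM in its highest group, rod bipolars, was called at P7 and P13 but not on the log2(CPM + 1) scale.

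Of the 4 B-class Eph receptors, 1, 3 and 3 were called higher in bipolars at P7, P13 and P30. Ephb2 was at 74.5 and 92.2 CPM in bipolars at P7, 67.1 and 66.5 CPM at P13 and 35.5 and 41.9 CPM at P30, while rods went from 17.3 and 45.0 CPM at P7 to 3.37 and 5.35 CPM at P30. The bipolar libraries were above both photoreceptor types of the same age throughout, by a log2 of 1.45 ± 0.48, 3.35 ± 0.48 and 2.91 ± 0.48 (limma adjusted p 0.0329, 5.67e-05 and 0.000201). Ephb6, which lacks kinase activity, was at 12.5 and 17.6 CPM in bipolars at P13 and 6.69 and 8.49 CPM at P30, and was called at both ages, at 3.88 ± 1.11 and 5.70 ± 1.11 (adjusted p 0.0112 and 0.000751). Ephb1 stood apart by its timing: it was at 1.16 and 2.32 CPM in bipolars at P7, 2.96 and 7.51 CPM at P13 and 22.6 and 27.2 CPM at P30, and it had no read in rod bipolars at P13. Ephb3, at 16.7 and 14.4 CPM in bipolars at P7, was the 1 gene of the 32 that was called in no comparison.

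Of the 7 ephrins, ligands of these receptors, 2, 6 and 5 were called higher in bipolars at P7, P13 and P30. Efna5 was at 36.5 and 40.5 CPM in bipolars at P7, 18.7 and 15.4 CPM at P13 and 11.6 and 15.6 CPM at P30, against 5.57 CPM or less in photoreceptors. It was called at P13 and P30, and at P30, where cones had no read, the bipolar mean was at least 268-fold higher than in cones. Efnb2 was at 17.3 and 15.9, 26.9 and 33.1, and 17.3 and 20.7 CPM in bipolars and at most 5.56 CPM in photoreceptors, and its log2 difference was 5.12 ± 1.67 at P13 and 5.23 ± 1.67 at P30 (adjusted p 0.0229 and 0.0192). Efnb3 was the ephrin with the highest level per kb; it was at 38.8 and 46.3 CPM in bipolars at P7 and 29.6 and 38.1 CPM at P13, and the call at P13 (3.92 ± 0.82, adjusted p = 0.00143) held in each fit that left out 1 library, though the rod libraries were at 3.34 and 0.126 CPM. Efna2 was at 8.24 and 7.69 CPM in bipolars at P7 and Efnb1 at 2.67 and 4.75 CPM at P13, and both stayed below 10 CPM in every library. Efna4, a minor ligand, was at 4.65 and 5.26 CPM in bipolars at P7 and at or below 0.708 CPM in every other group; 10.5% of its exon bases lie under exons of a gene on the other strand, and the strand used in counting is not given in the sources used here.

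Efna1, Ntn4 and Ephb1 were highest in bipolars at P30, where glial and vascular markers were highest too. Efna1 was at 0.558 and 0.961 CPM at P7, 1.16 and 0.436 CPM at P13 and 4.74 and 4.13 CPM at P30. Ntn4, the only netrin with a row and a component of basement membranes, was at 0.838 and 0.565, 3.78 and 4.65, and 16.2 and 21.3 CPM at the same ages. All 3 genes had no read in rod bipolars at P13. At P30 the bipolar mean of Efna1 was at least 145-fold above rods and at least 87.2-fold above cones, and that of Ntn4 was at least 369-fold above cones. In the same bipolar libraries the summed level of the 8 Müller glia markers was 206 to 221 CPM at P7, 845 to 1080.5 CPM at P13 and 4963 to 7771 CPM at P30, and it was 91.0 to 220.1 CPM in rod bipolars. The summed 8 endothelial and pericyte markers went from 27.0 to 30.3 CPM at P7, through 92.7 to 104 CPM, to 519 to 701 CPM at P30, and microglial markers from 4.24 to 6.28 CPM to 163 to 368 CPM. In the populations sorted apart, the vascular sum was 60.9 to 70.7 CPM in rod bipolars and 18.9 to 28.4 CPM in cone bipolars. The Müller glia sum was 328 to 344 CPM in cone bipolars. Microglial markers were at 4.05 to 6.56 CPM in rod bipolars and 52.2 to 57.8 CPM in cone bipolars. Cone bipolars held 0.0779 and 0 CPM of Efna1, 1.09 and 0.516 CPM of Ntn4 and 1.25 and 4.61 CPM of Ephb1. Cdh5, a defining endothelial gene, was at 0.0465 and 0 CPM in bipolars at P7 and at 7.57 and 4.99 CPM at P30. The part of these cells in the levels of Efna1, Ntn4 and Ephb1 was not tested.

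Slit2 and its receptor Robo2 were both abundant in bipolars. Slit2 was at 629 and 562 CPM at P7, 534 and 432 CPM at P13 and 221 and 449 CPM at P30. The rod bipolars and cone bipolars sorted apart at P13 held 208 and 144 CPM and 66.2 and 66.4 CPM, all below the bipolars of that age. Rods held 0.316 to 32.1 CPM and cones 0.147 to 20.0 CPM, with large differences between libraries of 1 group, and no photoreceptor library overlapped the bipolar range. The log2 difference was 7.29 ± 1.75, 6.86 ± 1.75 and 7.73 ± 1.75 at P7, P13 and P30 (limma adjusted p 0.00512, 0.0056 and 0.00235), and the call held in each alternative fit at every age. In cones, the library with more Slit2 at each age was also the one with more Grm6. Grm6 was at 31.5 and 1.84 CPM in cones at P7, where Slit2 was at 20.0 and 4.69 CPM. It was at 20.1 and 23.1 CPM at P13, with Slit2 at 0.209 and 10.3 CPM, and at 9.81 and 4.59 CPM at P30, with Slit2 at 17.7 and 0.147 CPM. The rod libraries, which held up to 32.1 CPM of Slit2, had no read of Grm6. Grm6 is 1 of 8 bipolar markers, and their sum in cones was 1375 and 1129 CPM at P7 and 1192 and 840 CPM at P30. At P13 the sum was 1097 and 954 CPM, in the order opposite to Slit2. In rods, without a read of Grm6, the same sum was 2171 and 2088 CPM at P7 and 1459 and 1561 CPM at P13. At P30 it was 829 and 883 CPM in rods. The sum is thus no measure of bipolar RNA alone. The part of bipolar RNA in the cone values was not tested.

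Robo2 was at 195 and 193, 246 and 232, and 196 and 178 CPM in bipolars at the 3 ages. Rods held at most 2.90 CPM, whereas cones held 52.7 and 36.3 CPM at P7, 7.12 and 21.4 CPM at P13 and 6.05 and 5.06 CPM at P30. Robo2 was thus ordered bipolars, cones, rods at each age with no overlap, and its log2 difference between bipolars and photoreceptors was 6.50 ± 1.32, 7.57 ± 1.32 and 5.84 ± 1.32 (adjusted p 0.00159, 0.000338 and 0.00238). Robo1 stayed low in bipolars, between 0.970 and 7.49 CPM, and reached 13.8 and 6.10 CPM in rod bipolars. Robo3, a divergent receptor that in commissural axons counters slit repulsion, was at 1.68 and 0.904, 2.96 and 0.679, and 0.0608 and 0.410 CPM in bipolars; it was called at P13, where rods had 1 read, and at P30, where neither photoreceptor type had any.

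Netrin-G1 was among the genes with the widest range. Ntng1 was at 41.97 and 29.2 CPM in bipolars at P7, 209 and 204 CPM at P13 and 302 and 238 CPM at P30, and at 761 and 943 CPM in rod bipolars and 151 and 113 CPM in cone bipolars. Most photoreceptor libraries had little or none, but single libraries held 12.7 CPM (rods at P13), 9.37 CPM (cones at P30) and 6.07 CPM (cones at P7). The pooled error of Ntng1 included these uneven libraries: its log2 difference was 11.04 ± 3.13 at P13 and 10.39 ± 3.13 at P30 (adjusted p 0.0107 and 0.0141), and on the log2(CPM + 1) scale both differences were near 6.71. At P7 it was not called although both bipolar values exceeded every photoreceptor value. Ntng2, its paralog with a different NGL partner, ran the other way and is described with the cones.

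**Figure D3:**
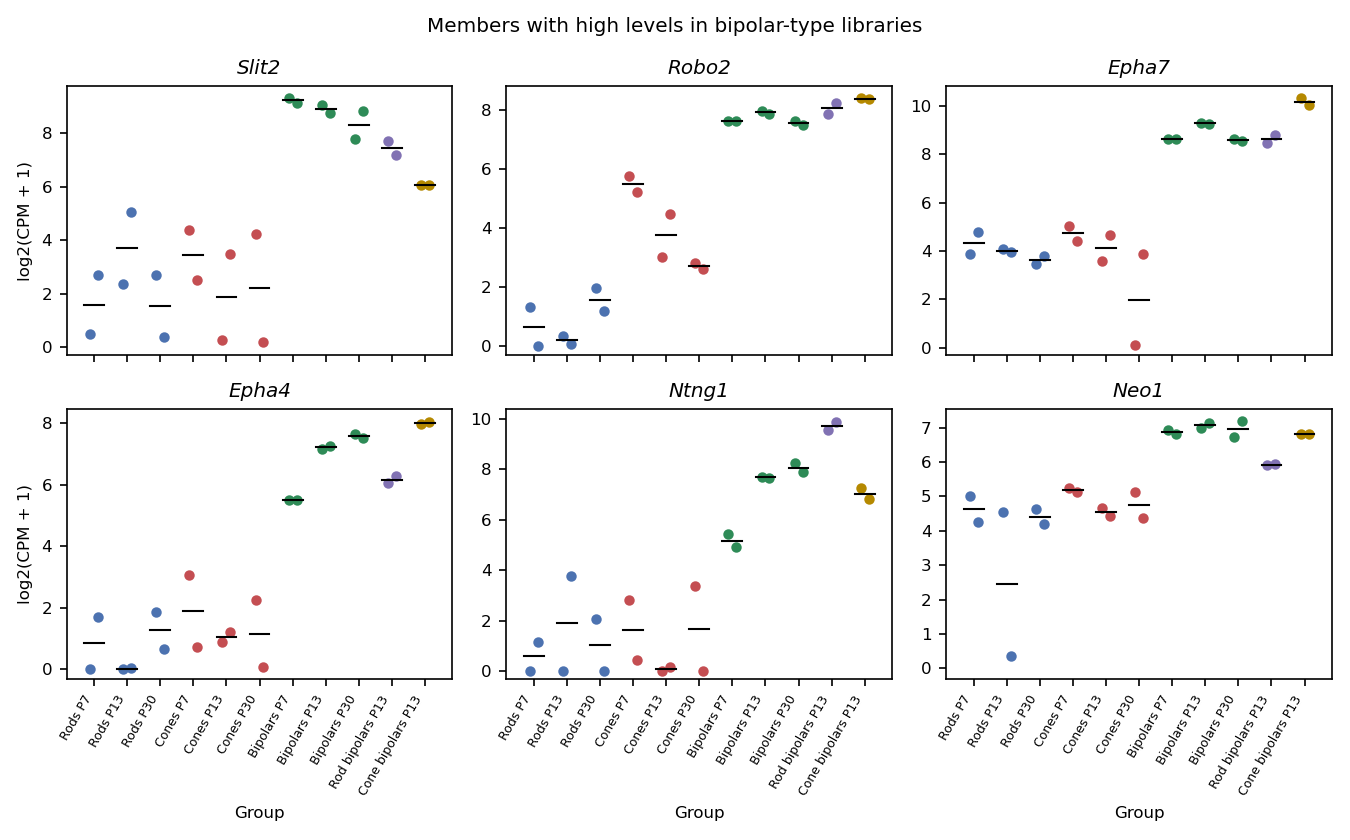
Levels of Slit2, Robo2, Epha7, Epha4, Ntng1 and Neo1 (vertical axis, log2(CPM + 1)) in the 11 groups; points are libraries and bars are group means. Bipolar groups lie above rods and cones in each panel, and for Ntng1 the rod bipolar points lie highest.

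Receptors of netrins and of repulsive guidance molecules were divided. Neo1, which encodes neogenin, was at 119.9 and 111, 126 and 140.3, and 106 and 145 CPM in bipolars, against 0.277 to 36.7 CPM in photoreceptors; it was called at P13 alone (4.14 ± 1.02, adjusted p = 0.00452), where the 2 rod libraries were at 22.6 and 0.277 CPM. Unc5d was at 58.6 and 64.8, 35.8 and 41.4, and 29.2 and 34.0 CPM in bipolars and was called at each age, at log2 differences of 2.85 ± 0.46, 1.32 ± 0.46 and 3.79 ± 0.46 (adjusted p 0.000219, 0.0303 and 1.06e-05). Unc5a went the other way: it was at 1.00 to 3.34 CPM in bipolars and 1.28 to 21.9 CPM in photoreceptors, and it was lower in bipolars at P7 (−2.77 ± 0.73, adjusted p = 0.00903, a call that voom weights on the recovered reads ended) and at P30 (−2.80 ± 0.73, adjusted p = 0.00583). Rgmb, a repulsive guidance molecule and BMP co-receptor that binds neogenin, was at 2.09 and 2.04 CPM in bipolars at P13 against 16.2 and 19.1 CPM in rods and 7.14 and 7.90 CPM in cones, a difference of −2.48 ± 0.50 (adjusted p = 0.00114). At P13 neogenin was thus higher in bipolars and its ligand Rgmb higher in both photoreceptor types, without overlap for either gene.

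Rods were then set against cones of the same age, and most of the differing genes were higher in cones. At P7, 5 of the 32 genes were lower in rods than cones (15.6%, against 9.52% of all genes) and 1 was higher (3.1%, against 3.30%). At P13, 11 were lower (34.4%, against 14.1%) and 1 was higher (3.1%, against 7.10%). At P30, 4 were lower (12.5%, against 10% of all genes) and 2 were higher (6.2%, against 9.98%), shares close to those of all genes. The median log2 difference over the 32 genes was −1.58, −1.68 and −0.16, against −0.16, −0.11 and 0.14 over all genes, and −1.41, −0.77 and −0.70 with groups without a read at the floor. With plain read totals the all-gene median at P30 was 0.74, that of the 32 genes was 0.16, and the share of all called genes that were higher in rods moved from 49.9% to 78.8%.

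Epha10 and Epha8 were lower in rods than in cones at all 3 ages. Epha10, an Eph receptor without kinase activity, was at 91.2 and 78.4 CPM in cones at P7, 92.1 and 77.6 CPM at P13 and 68.6 and 75.7 CPM at P30. The highest rod library held 1.04 CPM and the other 5 held 0.153 CPM or less. The log2 difference between rods and cones was −9.33 ± 1.12, −9.70 ± 1.12 and −8.77 ± 1.12 (limma adjusted p 3.48e-05, 1.61e-05 and 3.89e-05). Cone bipolars also carried Epha10, at 28.9 and 23.7 CPM, whereas rod bipolars held 1.68 and 2.72 CPM. Epha8, a receptor of A-class ephrins, was at 27.1 and 38.6 CPM in cones at P7, 9.92 and 10.3 CPM at P13 and 2.48 and 3.89 CPM at P30, and rods held 1.00 and 1.73 CPM, no read, and 0.0453 and 0 CPM. At P13 the cone mean was at least 230.5-fold above rods, and at P30 the ratio was 161 (exact 95% interval 44.0 to 1341, from 2 reads in rods). The Epha8 values of cones did not overlap between any 2 ages, and the fall from P7 to P30 in cones was not called in the fit over all groups (−3.38 ± 1.41, adjusted p = 0.126) but was on the log2(CPM + 1) scale, with plain read totals and with voom weights.

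Other receptors were also higher in cones. Unc5b, a repulsive netrin receptor, was at 17.1 and 11.1, 29.1 and 17.2, and 18.3 and 18.8 CPM in cones, and rods held 3.97 and 3.20 CPM at P7, no read at P13 and 0.883 and 0 CPM at P30. The cone mean at P13 was at least 526-fold above rods, and the difference at P30 was −7.85 ± 1.71 (adjusted p = 0.0035). Ntng2 was at 21.0 and 9.46, 8.12 and 11.8, and 5.73 and 6.98 CPM in cones, 0.140 to 3.21 CPM in rods and 1.92 CPM or less in every bipolar library of any kind. It was called lower in rods at P7 (−4.59 ± 1.44, adjusted p = 0.0416) and P13 (−4.11 ± 1.44, adjusted p = 0.0467), and 14.0% of its exon bases are shared with a gene on the same strand. Robo2 was lower in rods than in cones at P7 and P13 (−8.70 ± 1.53 and −6.58 ± 1.53, adjusted p 0.00111 and 0.00531). At P13 the genes lower in rods also included Ephb2 (−3.31 ± 0.56, adjusted p = 0.000487), Efnb3 (−3.48 ± 0.95, adjusted p = 0.0137), and Epha4, Efnb1, Robo1 and Robo3, which had 1 or 2 reads in rods and cone means of 1.49 CPM or less. Unc5d was lower in rods at P30 (−3.98 ± 0.53, adjusted p = 5.6e-05). At P7 the remaining call was Ntn4, which had no read in rods and 0.764 and 0.433 CPM in cones, at least 19.0-fold higher.

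Unc5c, another repulsive netrin receptor, was the gene higher in rods at P7 and at P13. It was at 44.4 and 15.5 CPM in rods at P7, 43.1 and 45.9 CPM at P13 and 8.90 and 10.3 CPM at P30, and at 3.47 and 0.631, 15.7 and 4.13, and 8.85 and 6.06 CPM in cones. The values of rods and cones did not overlap at P7 or P13, and at P30 the nearest libraries were at 8.90 and 8.85 CPM. The log2 difference was 4.14 ± 0.74 at P7 and 2.47 ± 0.74 at P13 (adjusted p 0.00123 and 0.0218). At P30 Ephb6 (1.29 and 0.297 CPM in rods, 0 and 0.147 CPM in cones) and Robo1 (1.24 and 0.0372 CPM in rods, no read in cones) were called higher in rods, at means below 1 CPM.

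**Figure D4:**
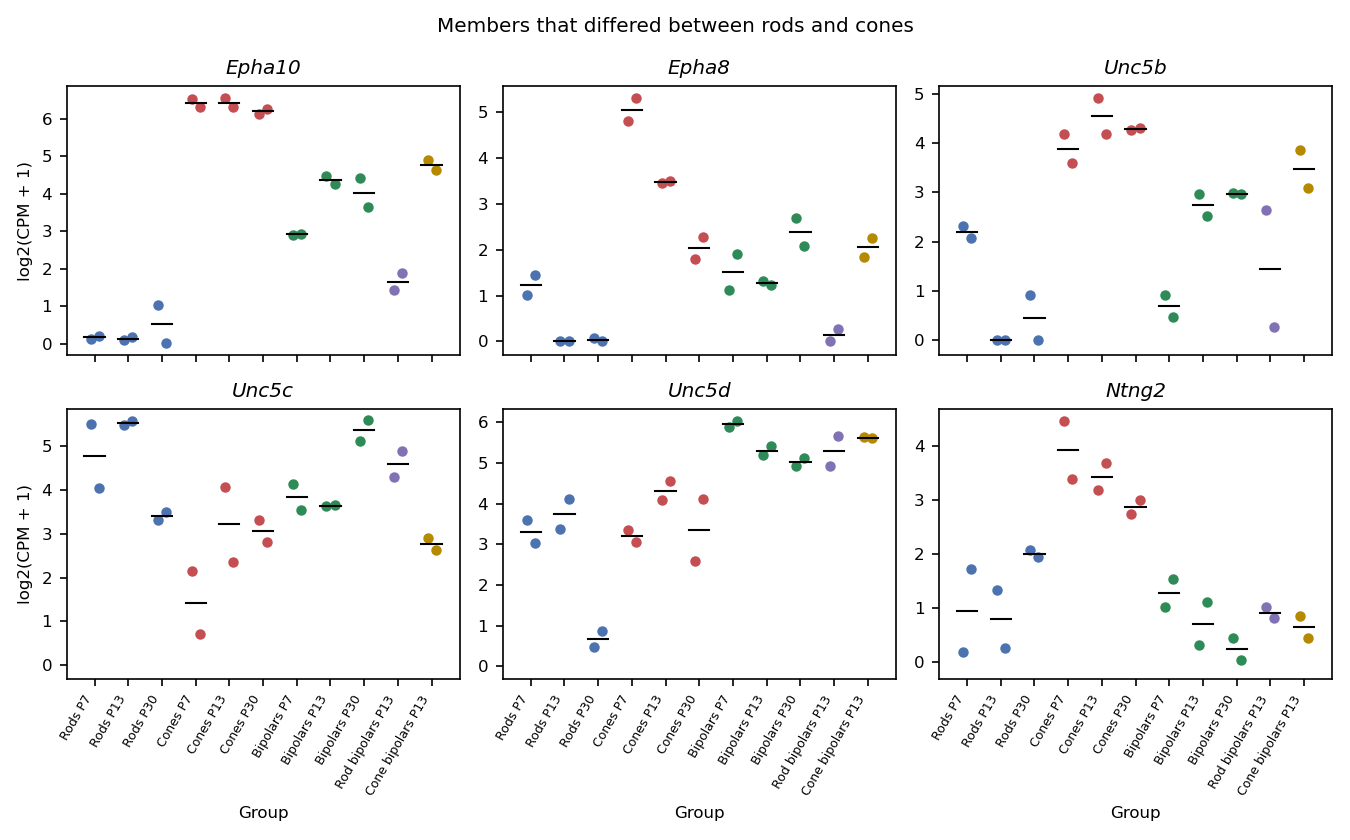
Levels of Epha10, Epha8, Unc5b, Unc5c, Unc5d and Ntng2 (vertical axis, log2(CPM + 1)) in the 11 groups; points are libraries and bars are group means. Epha10 is near 0 in the 6 rod libraries and at 68.6 to 92.1 CPM in the 6 cone libraries. Unc5c is higher in rods than in cones at P7 and P13, and was not called at P30.

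Leaving out single libraries ended some of these calls. Epha10, Robo2 and Unc5c held at P7 in each of the 22 fits, Epha8, Epha10, Ephb2 and Unc5b at P13, and Epha8, Epha10, Unc5b and Unc5d at P30. At P7 the highest limma adjusted p was 0.17 for Epha8 (without the second cone library), 0.215 for Ntn4 (without the first cone library) and 0.355 for Ntng2 (without the first rod library). At P13 the 8 other calls ended without the second cone library, and some without other libraries, with highest values from 0.0546 (Robo2) to 0.292 (Ntng2). At P30 Ephb6 reached 0.257 without the first cone library and Robo1 0.365 without the first rod library. On the log2(CPM + 1) scale the calls on Ntn4 at P7, on Epha4, Efnb1, Robo1 and Robo3 at P13 and on Ephb6 and Robo1 at P30 ended, and library weights ended these and Ntng2 and Unc5c at P13. With only rods and cones of 1 age in the fit, which leaves each gene with 4 libraries, the calls on these genes numbered 3 at P7, 3 at P13 (Epha8, Epha10 and Unc5b) and 0 at P30. The calls on all genes were also fewer there, at 10.6%, 3.66% and 6.44%, against 12.8%, 21.2% and 20% over all groups. Over all groups, limma had 8 of the 32 at an unadjusted p under 0.05 at P30 and voom called 4.

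Rod bipolars and cone bipolars, the 2 populations sorted apart at P13, differed in 2 of the 32 genes, 6.2% against 4.68% of all genes, a share near that background. The median log2 difference over the 32 genes was −1.81, against −0.06 over all genes, and −1.45 with groups without a read at the floor. Robo3 was at 10.3 and 8.63 CPM in rod bipolars and 0.623 and 0.147 CPM in cone bipolars, a log2 difference of 4.92 ± 1.36 (limma adjusted p = 0.0449). Epha8 was at 0 and 0.202 CPM in rod bipolars and 2.61 and 3.80 CPM in cone bipolars, at −6.34 ± 1.41 (adjusted p = 0.013). Leaving out the second cone bipolar library moved Robo3 to an adjusted p of 0.357, leaving out the first rod bipolar library moved Epha8 to 0.164, and neither was called with only these 2 groups in the fit (0.0731 and 0.145). Robo3 was also not called without the filter on low values.

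Several abundant genes had values without overlap between the 2 bipolar populations yet were not called. With 2 libraries in each, a lack of overlap is weak evidence by itself, and its share over all genes is not given here. In the fit over all groups their error also held the spread of photoreceptor libraries. Ntng1 was at 761 and 943 CPM in rod bipolars against 151 and 113 CPM in cone bipolars, a log2 difference of 2.70 with an SE of 3.62 over all groups (adjusted p = 0.819) and of 0.21 with only these 2 groups (adjusted p = 0.0121). Epha3 was at 7.90 and 5.80 against 90.7 and 82.7 CPM, at −3.68 ± 1.93 over all groups (adjusted p = 0.355) and ± 0.25 with only these groups (adjusted p = 0.01). Epha7 was at 348 and 436 against 1261 and 1031 CPM, Epha4 at 65.0 and 76.9 against 249 and 262 CPM, and Epha5 at 26.4 and 26.9 against 153 and 154 CPM. With only these 2 groups, Epha4, Epha5 and Epha7 had log2 differences of −1.85 ± 0.14, −2.52 ± 0.13 and −1.55 ± 0.20 (adjusted p 0.012, 0.00613 and 0.0293), and with voom weights the same 3 genes, Ntng1 and Epha3 were also called. Slit2 was at 208 and 144 CPM in rod bipolars and 66.2 and 66.4 CPM in cone bipolars, and it was called with only these groups (1.39 ± 0.21, adjusted p = 0.0402) but not with voom weights (adjusted p = 0.133). Epha10 was at 1.68 and 2.72 against 28.9 and 23.7 CPM and was called on the log2(CPM + 1) scale (−3.10 ± 0.41, adjusted p = 4.49e-05), with voom weights, with library weights and with only these groups. By contrast Robo2, at 231 and 297 against 332 and 327 CPM, had a log2 difference of −0.33 ± 1.53 (adjusted p = 0.971). The calls numbered 8 on the log2(CPM + 1) scale (9.33% of all genes were called), 7 with library weights (6.89%), 9 with voom weights (6.68%) and 11 with only these groups (5.88%), so the share of the 32 genes ran from 21.9% to 34.4% in these fits.

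Between P7 and P30, the calls within rods and within cones were falls. In rods 7 of the 32 genes fell (21.9%, against 9.15% of all genes) and in cones 7 fell (21.9%, against 7.28%), while limma called none of the 32 higher in either; 2 genes in each type were higher at an unadjusted p under 0.05, and voom called 0 higher in rods and 1 in cones. The medians over the 32 genes were −0.97 in rods and −2.47 in cones, against 0.10 and −0.19 over all genes. With plain read totals the all-gene median of cones was −0.97, and 12 of the 32 genes were called (37.5%, against 27.3% of all genes). The share of all called genes that rose in cones moved from 30.4% to 2.22%. The mitochondrial share of cone reads was 6.14 and 4.61% at P7 and 38.7 and 28.6% at P30, and its part in the cone falls was not tested.

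Robo3 fell in both photoreceptor types. It was at 1.48 and 1.75 CPM in rods and 4.60 and 5.66 CPM in cones at P7 and had no read in either at P30, so that P7 was at least 52.9-fold higher in rods and at least 101-fold higher in cones, and both calls held in each alternative fit. Ephb2 also fell in both types, in rods by 2.72 ± 0.56 on the log2 scale (adjusted p = 0.00211), and in cones, from 30.6 and 35.7 CPM to 13.1 and 2.91 CPM, by 2.42 ± 0.56 (adjusted p = 0.0109). In rods Efna2, an A-class ephrin, went from 4.07 and 6.38 CPM to 0.0226 and 0.0744 CPM and fell by 6.69 ± 1.31 (adjusted p = 0.00153). Unc5d went from 11.1 and 7.17 CPM to 0.385 and 0.836 CPM in rods and fell by 3.95 ± 0.53 (adjusted p = 6.77e-05), with 9.49 and 16.5 CPM at P13, so its drop lay between P13 and P30. Epha3, Epha8 and Unc5b were the other falls in rods. Leaving out the first P30 rod library moved Epha3 to an adjusted p of 0.36, and leaving out the second moved Unc5b to 0.379 and Epha8 to 0.0588.

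In cones the other falls were Epha7 (from 32.0 and 20.5 CPM to 0.0801 and 13.6 CPM), Ephb6, Efna5, Efnb1 and Robo1. Efna5 went from 5.57 and 4.20 CPM to no read, at least 96.0-fold, Efnb1 from 2.25 and 0.433 CPM to no read, at least 26.4-fold, and Robo1 from 1.66 and 0.451 CPM to no read, at least 20.7-fold. Each cone fall except that of Robo3 ended without the first P7 cone library, with highest adjusted p-values from 0.0732 (Ephb2) to 0.216 (Epha7). With only the groups compared in the fit, Robo3 alone remained of the 7 rod falls, and in cones Epha7, Ephb2, Ephb6 and Efnb1 were no longer called. On the log2(CPM + 1) scale the falls of Epha3 in rods and of Ephb6, Efnb1 and Robo1 in cones were not called.

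In bipolars 1 of the 32 genes was called lower at P30 than at P7 (3.1%, against 4.50% of all genes called lower), and the median over the 32 was −0.34, against 0.02. The gene was Draxin, a secreted antagonist of netrin signalling, at 14.1 and 15.5 CPM at P7, 1.45 and 1.79 CPM at P13 and 0.517 and 0 CPM at P30 (−7.91 ± 2.48, limma adjusted p = 0.0414). Its 3 ages did not overlap in bipolars, and leaving out the second P30 library moved the log2 difference to −4.82 and the adjusted p to 0.395. Limma called none of the 32 higher, with 2 at an unadjusted p under 0.05, whereas voom called 4 higher. Genes with steady replicates that were called in other fits were Epha4 (2.10 ± 0.39 with voom weights, adjusted p = 0.000899), Ntng1 (2.92 ± 0.61 with voom weights, adjusted p = 0.00243), Ntn4 (3.53 ± 0.39 on the log2(CPM + 1) scale, adjusted p = 2.52e-06) and Ephb1 (3.27 ± 0.70 on that scale, adjusted p = 0.00174), all higher at P30. Ephb2 was lower at P30 with voom weights (−1.10 ± 0.35, adjusted p = 0.0324), and Efna2 (−2.21 ± 0.51, adjusted p = 0.00305) and Efna4 (−1.99 ± 0.32, adjusted p = 0.000131) were lower on the log2(CPM + 1) scale. In bipolars the calls numbered 8 on the log2(CPM + 1) scale, 7 with voom weights, 9 with library weights and 11 with only these groups, which is 21.9% to 34.4% of the 32 genes, while 22.9%, 15.8%, 24.4% and 25.3% of all genes were called in these fits. In the same libraries, from P7 to P30, the summed markers of amacrine cells went from 194 and 280 to 530 and 653 CPM, beside the rise of the glial and microglial markers given with Ntn4, and their part in the values of Epha4, Ntng1, Ntn4 and Ephb1 was not tested.

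**Figure D5:**
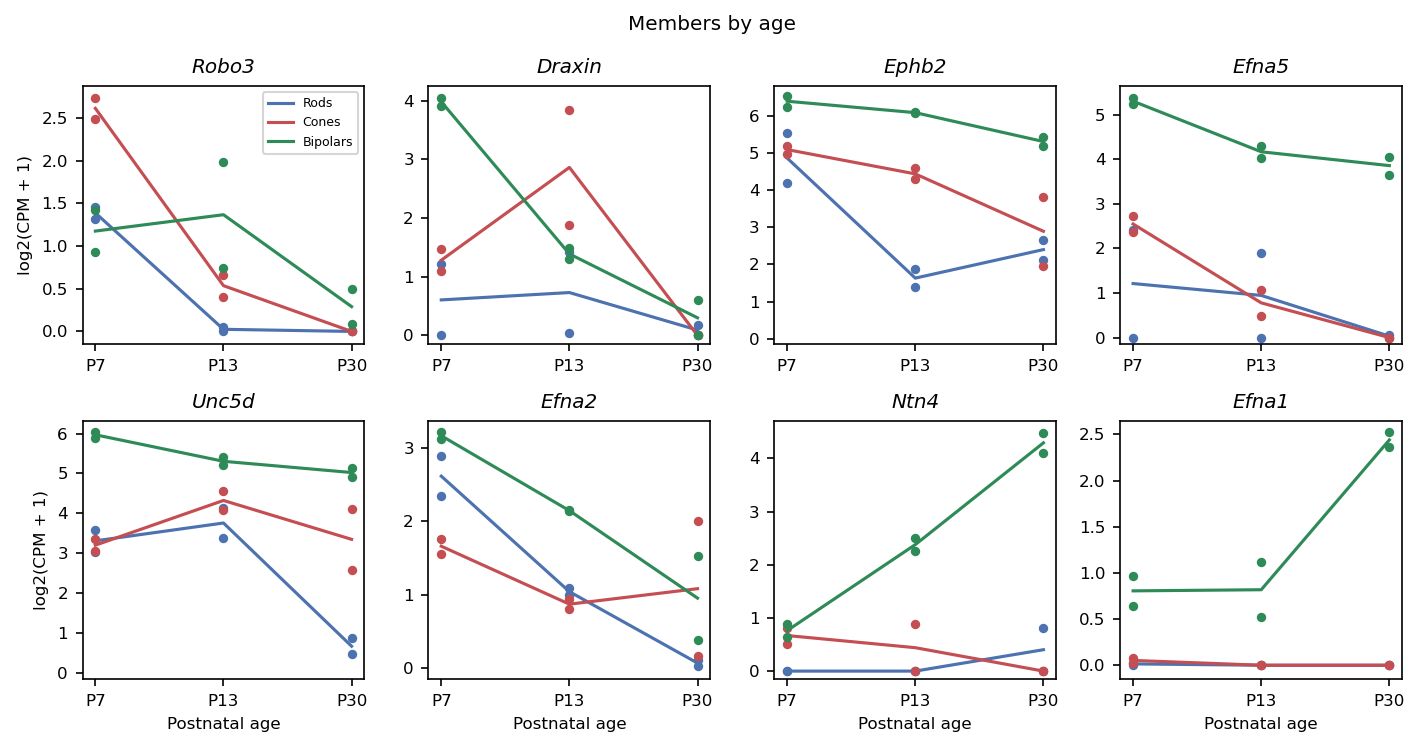
Levels of Robo3, Draxin, Ephb2, Efna5, Unc5d, Efna2, Ntn4 and Efna1 (vertical axis, log2(CPM + 1)) at P7, P13 and P30 in rods, cones and bipolars; points are libraries and lines join the means. Robo3 reaches 0 CPM at P30 in rods and cones, Draxin falls in bipolars from 14.1 and 15.5 CPM at P7, and Ntn4 and Efna1 are highest in bipolars at P30.

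The change from P7 to P30 was also compared between types, by the interaction term of the same fit. Between rods and cones 4 of the 32 genes differed (12.5%, against 10.6% of all genes), and between bipolars and photoreceptors 2 did (6.2%, against 11.1%), shares near the background. Unc5d was the 1 call that held in every leave-one-out fit: it fell in rods and was at 9.22 and 7.30 CPM at P7 and 5.005 and 16.3 CPM at P30 in cones, a difference of −4.09 ± 0.75 (adjusted p = 0.00326), not called with only these groups in the fit. Scaling to plain read totals moved the all-gene median of the rod and cone interaction from 0.38 to 1.03 and the share of positive calls from 56.9% to 90.1%; for bipolars and photoreceptors it moved the share from 61.7% to 80.1%.

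Partners and effectors of the same pathways were read from 2 lists: 22 extracellular partners, of which 17 were tested, and 44 intracellular effectors, all tested. Both lists were chosen with earlier results of these data known. Between bipolars and photoreceptors, 3, 6 and 8 of the 17 extracellular genes were higher in bipolars at P7, P13 and P30, and 1, 1 and 0 were lower. Of the 44 effectors, 8, 20 and 19 were higher and 1, 0 and 1 lower. The shares called higher were 17.6%, 35.3% and 47.1% of the extracellular genes and 18.2%, 45.5% and 43.2% of the effectors, against 11.6%, 20.6% and 22.6% of all genes. Nell2, a secreted ligand of Robo3, was at 70.2 and 76.8 CPM in bipolars at P7, 17.0 and 17.3 CPM at P13 and 4.44 and 3.65 CPM at P30. It was at 18.3 and 22.05 CPM in cone bipolars and 0 and 2.02 CPM in rod bipolars, a log2 difference of −7.37 ± 1.80 (limma adjusted p = 0.0232), so that the population with more Robo3 had less Nell2. Lrrc4c, which encodes the NGL protein that binds netrin-G1, was at 104 and 141 CPM in cone bipolars and 9.26 and 24.8 CPM in rod bipolars, opposite in order to Ntng1, but neither gene was called (Lrrc4c: −3.00 ± 3.14, adjusted p = 0.739); it was picked after its values were seen. Lrrc4, which encodes the NGL protein that binds netrin-G2, was higher in cones than in rods, as Ntng2 was. Only at P13 were both genes called, and the Ntng2 call there ended with the replicate block and with library weights. Lrrc4 was at 75.7 and 88.7, 75.1 and 35.0, and 40.7 and 50.4 CPM in cones and at 13.9 and 9.76, 1.93 and 0, and 0.136 and 0 CPM in rods, with log2 differences of −8.75 ± 1.76 at P13 and −10.46 ± 1.76 at P30 (adjusted p 0.00197 and 0.000471).

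Between rods and cones, 2 of the 17 extracellular genes were lower in rods at P13, with 1 higher, and 3 were lower at P30. Of the 44 effectors, 1, 3 and 4 were higher in rods at P7, P13 and P30 and 6, 8 and 5 were lower. The effector shares were 2.3%, 6.8% and 9.1% higher and 13.6%, 18.2% and 11.4% lower, near those of all genes (3.30%, 7.10% and 9.98% higher, 9.52%, 14.1% and 10% lower). Trio, a guanine nucleotide exchange factor downstream of netrin receptors, was at 59.4 and 51.4, 58.0 and 69.5, and 60.3 and 75.7 CPM in cones. In rods it was at 7.38 and 10.2, 0.281 and 1.66, and 0.453 and 1.23 CPM, and the log2 difference was −2.67 ± 0.58, −6.52 ± 0.58 and −6.49 ± 0.58 (adjusted p 0.0053, 1.29e-06 and 1.21e-06). Ablim1, an actin-binding protein linked to netrin responses, ran the other way: it rose in rods from 19.9 and 14.1 CPM at P7 to 357 and 231 CPM at P30, was at 13.7 and 8.80 CPM in cones at P30, and was at 1054 and 1135 CPM in rod bipolars against 64.8 and 57.4 CPM in cone bipolars. Its log2 difference was 4.71 ± 0.33 between rods and cones at P30 and 4.17 ± 0.33 between rod and cone bipolars (adjusted p 8.72e-08 and 1.44e-06).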

How the data were processed

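The deposited table gives log2 CPM (read counts scaled to library size) per Ensembl gene for 22 libraries. Per the submitters' processing notes, the authors used STAR and edgeR with GRCm38/mm10; versions, annotation and strand setting remain not given in the sources used here. Gene IDs were matched to symbols through GENCODE M21. The log2 floor of −7.10 was removed and whole reads were recovered from the deposited values (100.0% of values within 0.01 of a whole read); the authors' effective library sizes were 0.608 to 1.23 times the read totals.

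In R 4.3.3, limma 3.58.1 fitted the deposited log2 CPM with 1 coefficient per group over all 22 libraries (no replicate block, 11 residual degrees of freedom, intensity trend), on 13405 genes that had a log2 CPM of 0 or more in both libraries of some group; 380 genes were left out by that filter and 27 for lack of a symbol. Calls needed a Benjamini-Hochberg adjusted p under 0.05 and an absolute log2 fold change of at least 1, in 12 comparisons. Fold changes against a group without a read are given as lower bounds at 3 reads over the group, and those against 1 to 3 reads as ratios with an exact 95% interval. Alternatives were the log2(CPM + 1) scale, no filter or a filter at log2 CPM of 2, plain read totals, a replicate block, library (array quality) weights, only the compared groups, leaving out each library, and voom on the recovered reads. The fit was also run on simulated counts for rods against cones at P13, whose outcome is not given here and is not used as support.

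Any of the listed guidance genes could be named. Values per library are given for those called in at least 1 comparison with a mean of at least 3 CPM in their highest group, and pathway genes were named by the largest called fold change, at most 5 per comparison; Lrrc4c was named outside this rule, after its values were seen. Members, pathway lists and marker lists were chosen with earlier results of these data known. Promoters are RefSeq's (GRCm38.p6).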

Additional observations from a re-analysis of the deposited data

Results flagged for a closer look

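The change from P7 to P30 differed between cell types for 6 of the 32 genes, by the interaction term of the limma fit. Between bipolars and photoreceptors, Epha8 differed by 5.95 on the log2 scale (adjusted p = 0.0342): bipolars were at 1.16 and 2.77 CPM at P7 and 5.44 and 3.24 CPM at P30, while cones went from 27.1 and 38.6 CPM to 2.48 and 3.89 CPM and rods from 1.00 and 1.73 CPM to 0.0453 and 0 CPM. Robo3 differed by 5.75 (adjusted p = 0.0336), with no read at P30 in rods and cones, so this fitted value depends on the prior. Both calls ended in some fits without 1 library, with adjusted p-values up to 0.158 for Epha8 and 0.196 for Robo3, and that of Robo3 also ended on the log2(CPM + 1) scale and with voom weights.

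Between rods and cones, the change in Robo2 differed by 7.17 (adjusted p = 0.0446): rods went from 1.52 and 0 CPM to 2.90 and 1.26 CPM, and cones from 52.7 and 36.3 CPM to 6.05 and 5.06 CPM. Ntn4 differed by 9.67 (adjusted p = 0.0434), at 0.764 CPM or less in every rod and cone library of P7 and P30. Rods at P7 and cones at P30 had no Ntn4 read, so this fitted value depends on the prior, and the call ended on the log2(CPM + 1) scale, with the replicate block, with library weights, with voom weights and with only the compared groups (adjusted p from 0.0517 to 0.237). The change in Unc5c differed by −3.76 (adjusted p = 0.0307), from 44.4 and 15.5 CPM to 8.90 and 10.3 CPM in rods and from 3.47 and 0.631 CPM to 8.85 and 6.06 CPM in cones. That of Unc5d differed by −4.09 (adjusted p = 0.00326). Without the first P30 rod library Robo2 reached an adjusted p of 0.148 and Ntn4 of 0.196, and without the second P7 cone library Unc5c reached 0.124. Unc5c was also not called with plain read totals, library weights or voom weights, and none of these 4 was called when the fit held only the compared groups.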

How the results depend on the processing

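Of the 104 calls made on the 32 genes over the 12 comparisons, 83 held on the log2(CPM + 1) scale, 101 without a filter, 103 with plain read totals, 91 with library weights, 96 with voom weights and 54 when the fit held only the compared groups; 98 of 98 held under the stricter filter. None reversed in these settings. With 2 libraries per group and floors near 0.05 CPM, low genes are read with little precision.

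With only the compared groups, the number of the 32 genes called was 3, 3 and 0 for rods against cones at P7, P13 and P30, 18 and 15 for bipolars against photoreceptors at P7 and P13, 11 for rod against cone bipolars, 1 for rods and 11 for bipolars from P7 to P30, and 0 for the rod and cone interaction. The shares of all genes called, in the same order, were 10.6%, 3.66%, 6.44%, 28.7%, 24.7%, 5.88%, 6.99%, 25.3% and 4.86%. On the log2(CPM + 1) scale the number of the 32 genes called was 21 for bipolars against photoreceptors at P7, 8 for rod against cone bipolars, 8 for bipolars from P7 to P30 and 7 for the bipolar and photoreceptor interaction. On that scale 27.7%, 9.33%, 22.9% and 21.6% of all genes were called in these comparisons. With library weights the number of the 32 genes was 6 for rods against cones at P13, 24 for bipolars against photoreceptors at P7, 7 for rod against cone bipolars, 9 for bipolars from P7 to P30, and 2 and 4 for the 2 interactions. All-gene shares with these weights were 9.66%, 33.6%, 6.89%, 24.4%, 6.24% and 18%. With voom weights, chosen after seeing the data, the number of the 32 genes was 20, 9, 11, 7 and 4 for bipolars against photoreceptors at P7, rod against cone bipolars, cones and bipolars from P7 to P30, and the bipolar and photoreceptor interaction. Beside them, 24.9%, 6.68%, 12.4%, 15.8% and 11.5% of all genes were called. Plain read totals gave 12 for cones from P7 to P30 (27.3% of all genes), and no filter gave 1 for rod against cone bipolars (4.54% of all genes). The cause of these differences was not tested.

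Leaving out 1 library gave 3 to 6, 5 to 14 and 4 to 11 calls for rods against cones at P7, P13 and P30, 4 to 14, 10 to 24 and 16 to 25 for bipolars against photoreceptors, 0 to 6 for rod against cone bipolars, 6 to 8, 2 to 11 and 0 to 2 for rods, cones and bipolars from P7 to P30, and 1 to 8 and 0 to 5 for the 2 interactions.

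Replicate numbers recur across groups, but same-numbered libraries did not deviate together: over 55 pairs of groups the correlation of deviations was −0.142 to 0.193, with a median of 0.007. With the replicate block the counts, in the order of the comparisons above (rods against cones at P7, P13 and P30, bipolars against photoreceptors at P7, P13 and P30, rod against cone bipolars, the 3 age comparisons and the 2 interactions), were 4, 11, 6, 11, 23, 23, 2, 6, 8, 1, 3 and 3, and 97 of the 104 calls held. Shares of all genes called with the block were 12.7%, 21%, 19.8%, 22.6%, 33.2%, 35.4%, 4.68%, 19.8%, 10.2%, 12.6%, 10.8% and 11.3%. The count test planned on recovered reads was not run, because the table holds log2 values; voom took its place.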
